A study of Mus musculus with 6 samples.

Results

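The epidermal growth factor (EGF) family ligands Hbegf, Areg, Ereg, Tgfa, Btc and Nrg1, the receptors Egfr, Erbb2 and Erbb3 and the feedback inhibitor Errfi1 were followed on 6 arrays of 3T3 cells, an immortal fibroblast line from mouse embryos. Members were all probes, other than control spots, that carry one of these 10 gene names, of 35527 on the array, which gave 12 of 55681 probes. The cells were treated for 48 h at 50 nM with GapmeR Ntep or with GapmeR control. That dose is the one in the labels, while the array documentation writes it as a multiple of this amount. A GapmeR is an antisense oligonucleotide that recruits RNase H to its target RNA, here the long noncoding RNA Ntep. Each of 3 independent experiments gave 1 array per GapmeR, and all 6 arrays were hybridised on 1 slide with 1 colour. No genetic change separates the groups, and both received a GapmeR, so untreated cells are not part of the comparison. Signals are given after quantile normalization, which gives all arrays the same distribution, with values under 20 set to 20. Differences are GapmeR Ntep minus GapmeR control on the log2 scale, with 95% confidence intervals (CI) where given. The question was how the ligands and receptors stood after Ntep was targeted.

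EGF family ligands are made as membrane proteins and are released by ADAM proteases. They bind receptor tyrosine kinases, which pair with one another and pass the signal through RAS to the kinase ERK. Egfr binds Hbegf, Areg, Ereg, Tgfa and Btc, and Erbb3 binds Nrg1. Erbb2 has no known ligand and acts as a partner of the other receptors, while Erbb3 has little kinase activity of its own. Errfi1, also called Mig6, binds active Egfr and blocks its kinase. In fibroblasts, growth factors of this family are known mitogens.

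The probe for Ntep (A630089N07Rik on the array, at chr16:98283712-98283771 of the mouse build mm9) checked the labels. In experiments 1, 2 and 3 it gave 472, 91.5 and 226 where the label was GapmeR Ntep, against 271, 272 and 361 where it was GapmeR control. It was lower in experiments 2 and 3 (-1.57 and -0.68), whereas experiment 1 went against its label (0.80). The difference of -0.48 (SE 0.59, adjusted p = 0.632) was within the spread of the replicates, and without experiment 1 it was -1.125 (adjusted p = 0.241). An exact two-sided permutation test of all 6 arrays gave p = 0.7, where the smallest p of this design is 0.1. Every direction below is therefore that of the label, and values without experiment 1 are given where a result leans on it. Between 43.7% and 53.3% of probes were well above background per array, and normalized arrays correlated with one another at 0.959 to 0.989. Of 10 fibroblast markers, 9 were well above background on all arrays and Fap was at 20 throughout. Col1a1 and Col3a1, collagens of this list, were lower with GapmeR Ntep in each experiment, experiment 1 included (73030 against 105300 and 65900 against 146100), though neither passed (adjusted p = 0.212 and 0.164). The summed signal of the list ranged from 555700 to 737400 on the arrays labelled GapmeR Ntep and from 808000 to 891100 on the controls. Of 10 macrophage markers, 5 were well above background on all arrays, and the summed signal of the list was 43030 to 75430 against 21120 to 27770. Of its 6 tested markers, 4 were higher, with a median difference of 1.16 over the 6, and only Cd68 passed (1.21, adjusted p = 0.0287). In a fit with experiments as blocks 4 passed as higher and 1 as lower, where 13.9% of all gene names passed. Csf1r had the largest difference (3.19, unpaired adjusted p = 0.15). Aif1 of the same list ran the other way (-1.28, adjusted p = 0.276), with 176, 556 and 359 with GapmeR Ntep against 347, 1171 and 1231. Ptprc, Emr1, Fcgr1 and Mrc1 of that list were well above background on no array. The part of these shifts in the results was not tested. In RNA from whole cultures, fewer cells of a type and less RNA per cell cannot be told apart.

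Upstream sequences show how unlike the start regions of these genes are in base composition and in short promoter motifs. The RefSeq table for GRCm38.p6 holds 7 start sites for 6 of the 10 members (Areg, Tgfa, Btc, Egfr, Erbb2 and Errfi1). Each run below is the 250 bases upstream of a start site, 5′ to 3′ on the gene's strand. Capitals mark matches on either strand to the CRE motif (TGACGTCA), the GC box (GGGCGG) and the TATA box (TATAAA). Betacellulin (chr5:91402995-91403244, minus strand) is shown because its probe was above background under 1 label only, Egfr (chr11:16751953-16752202, plus strand) and Erbb2 (chr11:98412234-98412483, plus strand) as the receptors measured on all arrays. Errfi1 (chr4:150854820-150855069, plus strand) and Areg (chr5:91139349-91139598, plus strand) are shown because they share a motif.
Btc: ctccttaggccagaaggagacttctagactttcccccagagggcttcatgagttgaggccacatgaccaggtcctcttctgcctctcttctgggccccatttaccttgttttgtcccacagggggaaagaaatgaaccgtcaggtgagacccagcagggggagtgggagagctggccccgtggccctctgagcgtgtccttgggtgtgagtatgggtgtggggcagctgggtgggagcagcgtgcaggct
Egfr: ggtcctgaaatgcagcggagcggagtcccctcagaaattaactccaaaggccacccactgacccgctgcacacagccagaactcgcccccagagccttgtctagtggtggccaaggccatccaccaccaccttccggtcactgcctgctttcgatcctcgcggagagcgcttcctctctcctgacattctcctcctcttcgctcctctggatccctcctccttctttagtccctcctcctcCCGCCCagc
Erbb2: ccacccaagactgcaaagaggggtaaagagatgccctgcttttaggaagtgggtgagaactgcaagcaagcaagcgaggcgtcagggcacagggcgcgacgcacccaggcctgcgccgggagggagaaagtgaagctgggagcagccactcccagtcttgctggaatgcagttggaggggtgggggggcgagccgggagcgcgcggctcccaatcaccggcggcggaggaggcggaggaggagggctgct
Errfi1: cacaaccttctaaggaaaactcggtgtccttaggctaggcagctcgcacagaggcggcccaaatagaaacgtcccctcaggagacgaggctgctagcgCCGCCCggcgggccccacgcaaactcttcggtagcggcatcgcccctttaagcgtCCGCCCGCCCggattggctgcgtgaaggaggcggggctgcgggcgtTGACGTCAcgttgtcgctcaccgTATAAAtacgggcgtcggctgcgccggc
Areg: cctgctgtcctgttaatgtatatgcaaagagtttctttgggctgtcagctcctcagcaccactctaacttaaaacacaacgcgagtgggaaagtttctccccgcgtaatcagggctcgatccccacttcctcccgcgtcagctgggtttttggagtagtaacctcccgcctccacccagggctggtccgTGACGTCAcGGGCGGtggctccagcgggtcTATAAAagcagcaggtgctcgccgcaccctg

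The CRE motif was in 1.55% of all 32851 promoters of this length, the GC box in 32.7% and the TATA box in 12.4%. Areg and the Errfi1 start shown both held a CRE, a GC box and a TATA box, with 3 GC boxes in Errfi1 of which a pair overlaps. Egfr held 1 GC box just before its start and Tgfa 2, while Btc and Erbb2 held none of these motifs. The other Errfi1 start (chr4:150853546-150853795) had none either and only 38% GC, against 64.8% in the one shown and a median of 52.4% over all promoters. The AP-1 motif (TGANTCA, in 6.75% of promoters) and the E-box (CACGTG, in 6.02%) matched in none of the 7. These matches are letters in a short window and do not show that a factor binds there.

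Of the 10 members, 7 reached the signal limit for testing, a mean of 50 in one group or the other (Hbegf, Ereg, Btc, Nrg1, Egfr, Erbb2 and Errfi1), and their p-values were adjusted over all 30990 tested probes by limma. Betacellulin (Btc) alone had an adjusted p under 0.05, with the lower values on the arrays labelled GapmeR Ntep. It reached the limit for testing only through the controls and lies at the floor on the other arrays, so its call is a description and no measure of replicate spread. Over the whole array, 5.16% of 22034 tested gene names passed (3.18% lower and 1.98% higher). The study's limits of a fold change of at least 2 with an unadjusted p under 0.01 also called Btc alone among the members, where 7.89% of all gene names passed, 2.89% higher and 5% lower. Hbegf, Ereg and Errfi1 were higher in each of the 3 experiments without passing, as were 32.5% of all gene names, and Btc, Egfr and Erbb2 were lower in each, as were 27%. Nrg1 differed in direction between experiments. The median difference of the 7 was -0.34, against 0.06 over all tested gene names. Btc counts among the 7 with a value set by the floor, so this median does not show a shared shift of the members.

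**Figure D1:**
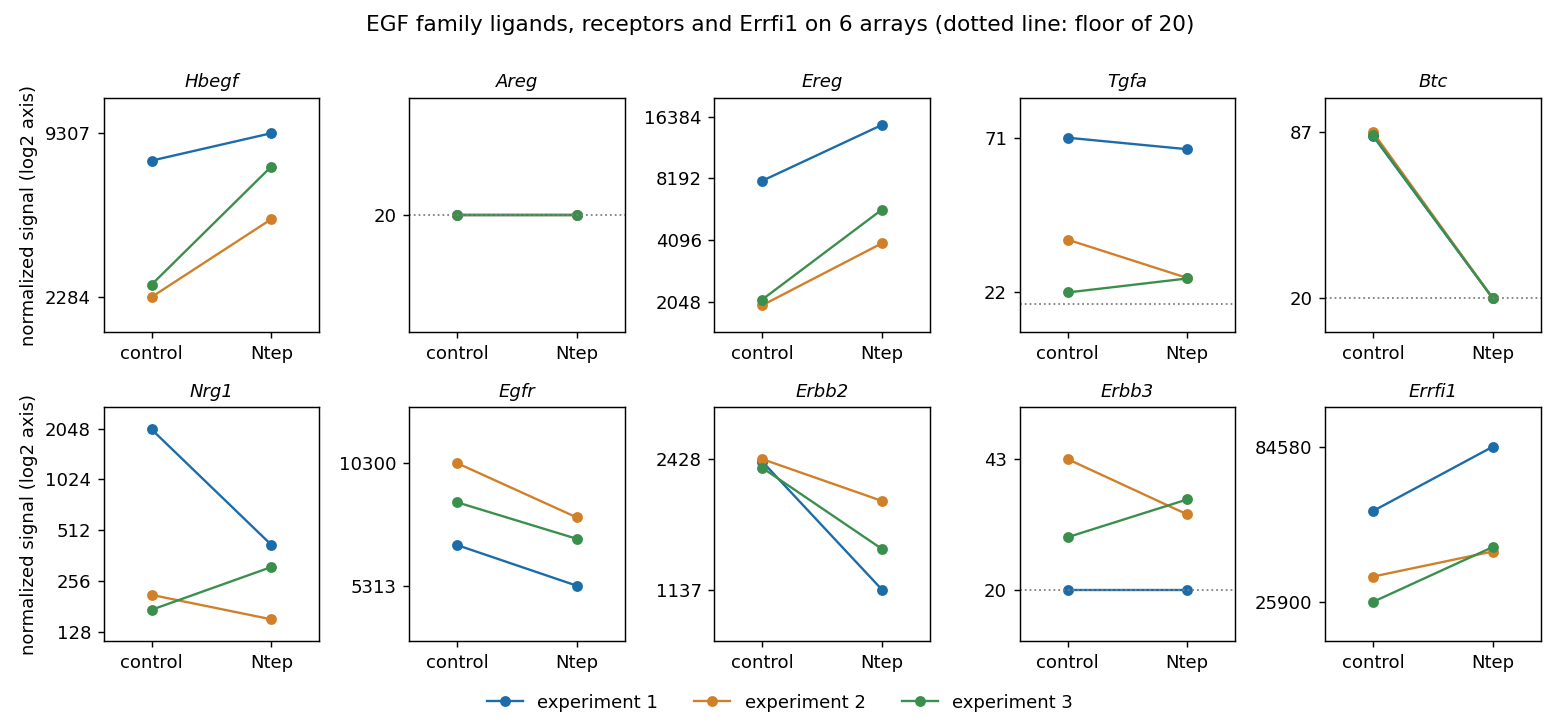
Normalized signal of the brightest probe of each member (log2 axis, scaled per gene) for GapmeR control and GapmeR Ntep, with a line for each of the 3 experiments. Btc drops to the floor of 20 in all experiments, Hbegf, Ereg and Errfi1 slope upward in each, and Egfr and Erbb2 slope downward in each.

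Among the ligands, Hbegf, a heparin-binding ligand of Egfr, had signals of 9307, 4453 and 6992 with GapmeR Ntep in experiments 1 to 3, against 7356, 2284 and 2540 on the controls. All 3 experiments were higher, by 0.34, 0.96 and 1.46, but the groups overlapped because the control of experiment 1 was above 2 of the 3 GapmeR Ntep arrays. Means were 6917 ± 2428 and 4060 ± 2857 (SD, n = 3 each). The difference of 0.92 (SE 0.52, CI -0.36 to 2.20, adjusted p = 0.330) did not pass, nor did it with experiments as blocks (SE 0.26, adjusted p = 0.0902). With single arrays left out it ranged from 0.61 (without control replicate 2) to 1.46 (without control replicate 1), and without experiment 1 it was 1.21 (adjusted p = 0.0885), a setting chosen once the values were known. The probe lies at chr18:36664738-36664797 of mm9.

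Ereg (epiregulin), another Egfr ligand, followed the same order of arrays, with 14940, 3954 and 5771 with GapmeR Ntep and 7975, 1970 and 2101 on the controls. Experiment 1 was brightest under both labels, and within experiments the differences of 0.91, 1.01 and 1.46 lay close together. Unpaired, the difference of 1.12 (SE 0.72, CI -0.64 to 2.88, adjusted p = 0.384) did not pass. With experiments as blocks the SE was 0.18, the CI 0.64 to 1.61 and the adjusted p 0.0385, so that Ereg and Btc passed among the members, where 13.9% of all gene names did, 6.51% higher and 7.42% lower. Its call depended on the pairing. The unpaired difference ranged from 0.57 without GapmeR Ntep replicate 1 to 1.78 without control replicate 1, and was 1.23 without experiment 1 (adjusted p = 0.0733). Group means were 8220 ± 5886 and 4016 ± 3430 (SD, n = 3 each). The probe is at chr5:91522553-91522612 of mm9.

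Btc, a ligand of Egfr and Erbb4, was dim, with 84.0, 86.7 and 84.6 on the control arrays and 20 on each array labelled GapmeR Ntep. It was well above background on each control and on none of the others, so the groups did not overlap, as for 32.6% of all tested gene names. The fitted difference of -2.09 (SE 0.15, adjusted p = 0.0157) is set by the floor of 20, and so is its SE, since the floored values have no spread. With the lowest signal that was well above background on each GapmeR Ntep array in place of the floor, Btc was on average 1.65-fold lower. In experiment 3 that signal was 81.4, near the control value of 84.6. The fold is no strict bound, since probes not well above background can exceed such a signal. With a floor of 50 the difference was -0.77 (adjusted p = 0.0346). The call was lost without control replicate 2 (adjusted p = 0.109), control replicate 3 (0.0734) or GapmeR Ntep replicate 3 (0.0786). In these settings the difference stayed at -2.075, -2.093 and -2.089, and 0, 5 and 0 probes passed over the whole array. Its probe lies at chr5:91786948-91787007 of mm9, on the same chromosome as those of Areg (chr5:91570090-91570149) and Ereg.

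Nrg1 (neuregulin 1), which binds Erbb3 and Erbb4, had the widest spread between controls among the tested members, with 2031 in experiment 1 against 211 and 172 in experiments 2 and 3. Under GapmeR Ntep it was 419, 151 and 309. The experiments gave -2.28, -0.48 and 0.84, and the difference of -0.64 (SE 1.00, adjusted p = 0.717) was smaller than the replicate spread. Without control replicate 1 it turned to 0.50 and without experiment 1 to 0.18. Only 1.08% of tested gene names had a wider range among controls than the 3.56 (log2) of Nrg1. That probe lies at chr8:32928500-32928559 of mm9.

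The control of experiment 1 stood above the other controls for several members. It was higher than their mean by 1.61 for Hbegf, 1.97 for Ereg, 3.41 for Nrg1 and 0.86 for Errfi1 on the log2 scale. A wider range among controls than that of Hbegf was found for 8.19% of gene names, and for Ereg it was 5.79%. The receptors did not share this, since control 1 differed from the others by -0.49 for Egfr and 0.02 for Erbb2.

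The other ligands gave little or no signal. Areg (amphiregulin) was at 20 on all 6 arrays and well above background on none. Tgfa, measured with 10 spots at chr6:86224838-86224897 of mm9, had 65.0, 24.5 and 24.4 with GapmeR Ntep and 71.0, 32.7 and 21.9 on the controls. It was well above background on 1 array of each label, both values above 60 came from experiment 1, and it was below the limit for testing.

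Among the receptors, Egfr was lower in each experiment by a similar amount. Its brightest probe, on transcript NM_207655 (chr11:16813815-16813874 of mm9, 10 spots), had 5313, 7683 and 6844 with GapmeR Ntep against 6617, 10300 and 8336 on the controls. Within experiments the differences were -0.32, -0.42 and -0.29, yet the groups overlapped because control 1 was below 2 of the 3 GapmeR Ntep arrays. The difference of -0.34 (SE 0.24, CI -0.94 to 0.25) did not pass unpaired (adjusted p = 0.431) or with experiments as blocks (0.158). It ranged from -0.18 without control replicate 2 and -0.19 without GapmeR Ntep replicate 1 to -0.50 without control replicate 1. Without experiment 1 it was -0.35 (adjusted p = 0.291). Group means were 6613 ± 1202 and 8418 ± 1844 (SD, n = 3 each).

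A further 2 Egfr probes, on transcript NM_007912, also differed downward in all 3 experiments. The probe at chr11:16783556-16783615 had 148, 432 and 396 with GapmeR Ntep and 296, 644 and 495 on the controls (-0.63, SE 0.51, adjusted p = 0.479). That at chr11:16787172-16787231 had 80.0, 341 and 312 against 221, 409 and 380 (-0.67, SE 0.61, adjusted p = 0.522). For both, experiment 1 gave the widest gap (-1.47 on the latter probe), while the NM_207655 probe moved about equally in all.

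**Figure D2:**
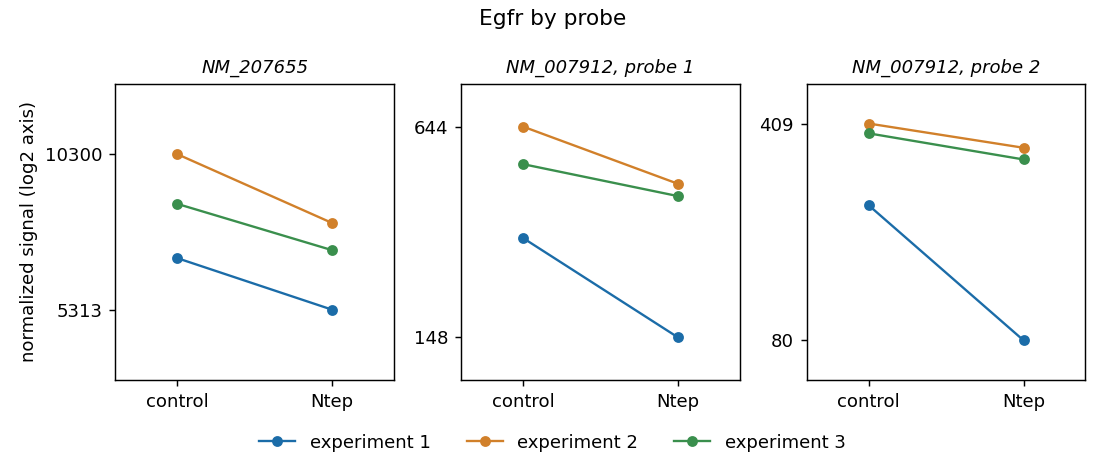
Signal of the 3 Egfr probes (log2 axis, scaled per probe) for GapmeR control and GapmeR Ntep, with a line for each experiment. All lines slope downward, and experiment 1 is the lowest on each probe under both labels.

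Erbb2 (10 spots, chr11:98298103-98298162 of mm9) had nearly equal controls of 2394, 2428 and 2308, against 1137, 1904 and 1440 with GapmeR Ntep. These 3 were below all controls, a lack of overlap found for 32.6% of all tested gene names. Means were 1494 ± 386 and 2377 ± 61.8 (SD, n = 3 each). The difference of -0.70 (SE 0.23, CI -1.26 to -0.15, unadjusted p = 0.0211) did not pass after adjustment over all probes (adjusted p = 0.128, or 0.0873 with experiments as blocks). Experiments 1, 2 and 3 gave -1.08, -0.35 and -0.68, and without experiment 1 the difference was -0.52 (adjusted p = 0.192). Controls of 95.9% of gene names spread more widely than those of Erbb2.

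Erbb3, the receptor for Nrg1, was not well above background on any array (20, 31.0 and 33.8 against 20, 42.7 and 27.1) and was not tested. Its probe lies at chr10:128006424-128006483 of mm9.

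Errfi1, the inhibitor of Egfr, had 84580, 38040 and 39340 with GapmeR Ntep and 51790, 31420 and 25900 on the controls. The experiments were higher by 0.71, 0.28 and 0.60, with experiment 1 brightest under both labels and the groups overlapping. The difference of 0.53 (SE 0.42, CI -0.49 to 1.54) passed neither unpaired (adjusted p = 0.473) nor with experiments as blocks (0.0996). It was 0.15 without GapmeR Ntep replicate 1, 0.32 without control replicate 3 and 0.82 without control replicate 1. Without experiment 1 it was 0.44 (adjusted p = 0.191). The probe lies at chr4:150242886-150242945 of mm9.

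**Figure D3:**
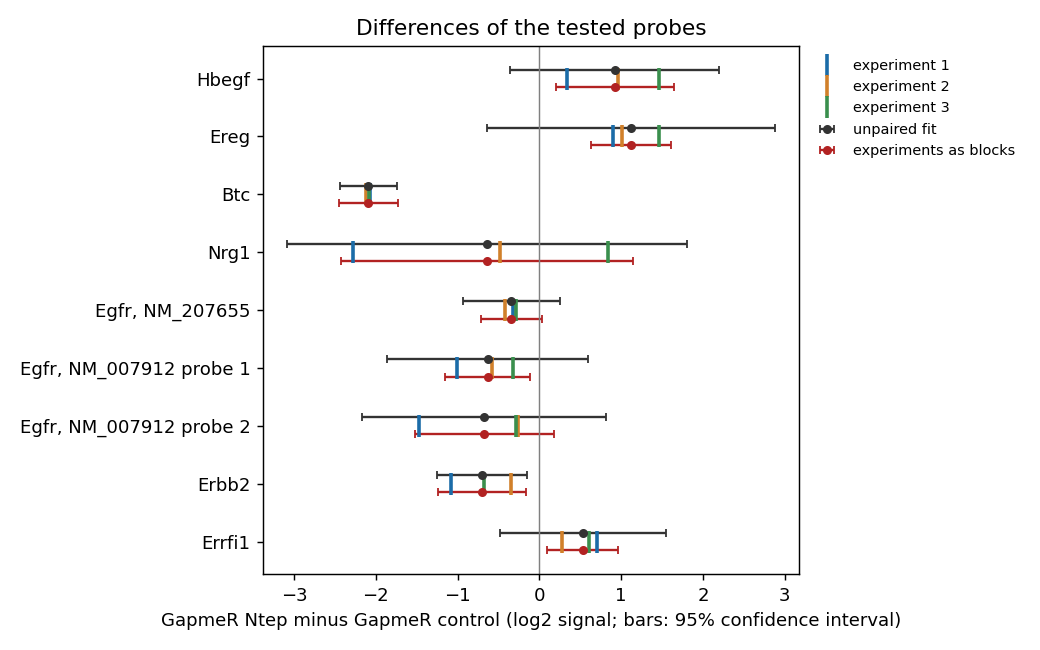
Difference between GapmeR Ntep and GapmeR control (log2 signal) for the 9 tested probes of the members, with points and bars for the estimate and its 95% confidence interval and ticks for the 3 experiments. Intervals of Hbegf, Ereg and Errfi1 narrow when experiments are blocks, and that of Nrg1 spans both directions in each fit.

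The profiles most like that of Hbegf over the 6 arrays were those of Senp5, Eif1ad and Hecw2. Centred on each gene's own mean, their log2 values differed from those of Hbegf by 0.112, 0.123 and 0.139 (root mean square), against a median of 0.817 over 14535 candidates. For Egfr they were Dock11 (0.0533), Eya3 (0.0688) and Snx14 (0.0700), with a median of 0.438.

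Further genes of the pathway were counted by their brightest probe. Of 6 other EGF family ligands and receptors, 3 were tested and none passed, with a median of -0.91. Egf itself had 392, 364 and 384 with GapmeR Ntep against 594, 543 and 557 on the controls (-0.57, SE 0.15, adjusted p = 0.0815). Its groups did not overlap, as for 32.6% of all tested gene names. Epgn (epigen), an Egfr ligand, had 347, 150 and 147 against 526, 315 and 305 (-0.91, SE 0.42, adjusted p = 0.241), and it passed with experiments as blocks (0.0463). The third, Nrg4, had a signal above 20 on 1 control array only on its brightest probe. That array alone brought Nrg4 to the limit for testing. The median of the list is the value of Epgn and rests on counting Nrg4. Erbb4, the fourth receptor of the family, was at 20 on all arrays.

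Of 12 genes of ligand shedding, 11 were tested, none passed, and the median was -0.02 with a range of -0.39 to 0.54. Adam15, a membrane protease, differed by -0.39 (adjusted p = 0.269) and Rhbdf2, which escorts the main sheddase Adam17 to the cell surface, by 0.40 (0.265). Adam17 had adjusted p = 0.512 at -0.20 on its brightest probe, where the groups did not overlap, as for 32.6% of all tested gene names. On its other probe (-0.21, adjusted p = 0.477) the groups overlapped.

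Of 19 genes of signalling next to the receptor, 18 were tested and 1 passed, with a median of 0.01. Nras, a RAS GTPase, rose from 15180 ± 2369 to 30770 ± 2690 (SD, n = 3 each) on its brightest probe (1.03, SE 0.19, adjusted p = 0.0399). That call was lost with 75th percentile scaling and on leaving out any single array. Over the whole array 0 to 1403 probes passed with an array left out, against 1642 in the main fit. The other 2 probes of Nras, on the same transcript, differed by 0.10 and 0.01. For Araf, a kinase activated by RAS and named here after its values were seen, a dimmer probe was at -2.42 (adjusted p = 0.0339) while its other probes were at 0.04 and -0.17.

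Of 18 genes that restrain the receptor or turn it over, 17 were tested and none passed after adjustment, with a median of -0.06. Ptpn1, a tyrosine phosphatase that acts on Egfr, differed by 0.77 (SE 0.17, adjusted p = 0.0544) and passed with experiments as blocks (0.0416). It was higher on every array labelled GapmeR Ntep than on any control, and groups were without overlap for 32.6% of all tested gene names. Spred1, an inhibitor of signalling from RAS to ERK, had 16170, 21730 and 15580 against 46490, 33330 and 29860 (-1.03, SE 0.25, adjusted p = 0.0676) and passed the study's limits. Its other 2 probes gave -0.93 and -0.80. The widest difference in the list was that of Cblb, a ubiquitin ligase for active receptors named here after its values were seen, at -2.80 (SE 0.97, adjusted p = 0.147), while its other probe was at -0.03.

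Of 10 genes induced by ERK, 8 were tested and none passed, with a median of 0.34. Etv5, a transcription factor, had 22350, 20770 and 40750 against 17740, 4597 and 6307 (1.73, SE 0.56, adjusted p = 0.126). Dusp4, a phosphatase of ERK, had 3599, 1840 and 3062 against 2069, 589 and 724 (1.51, SE 0.53, adjusted p = 0.152) and passed with experiments as blocks (0.0488). As for Hbegf and Ereg, control 1 was the highest control of both.

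**Figure D4:**
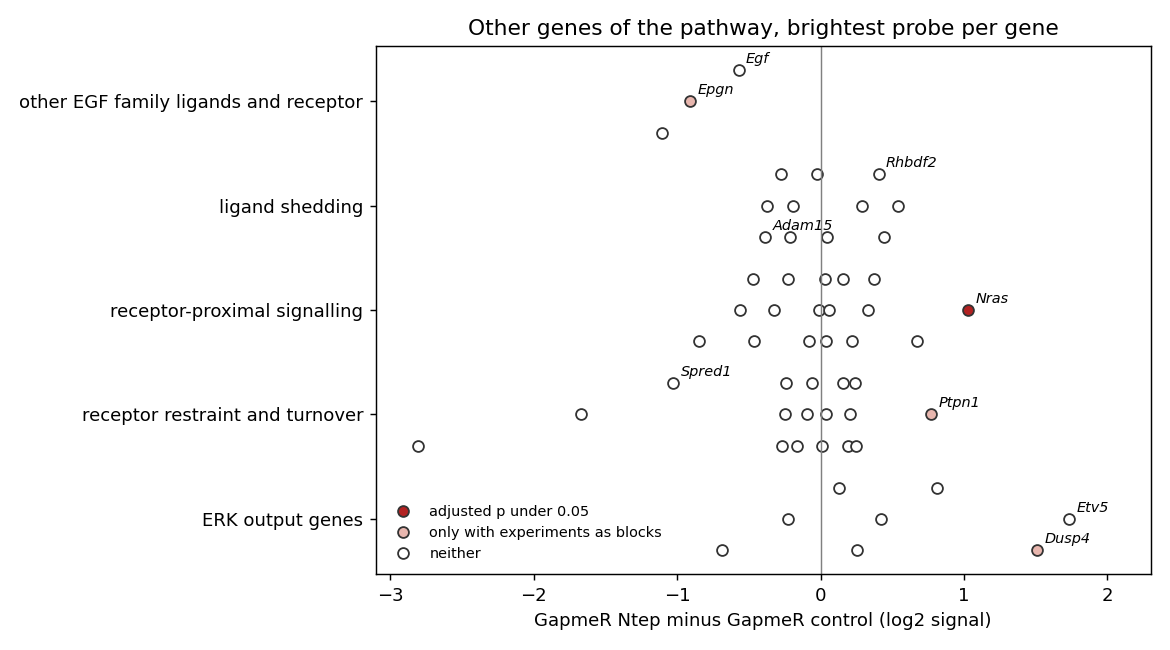
Difference between GapmeR Ntep and GapmeR control (log2 signal) for the brightest probe of tested genes in the 5 pathway lists, one point per gene; 1 gene is not shown. Nras is the one point that passed in the unpaired fit, and Epgn, Ptpn1 and Dusp4 passed with experiments as blocks.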

How the data were processed

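The authors deposited scanner intensities per array, background subtracted by Agilent Feature Extraction 10.7.3.1 (per the labels), on a linear scale and without normalization between arrays. Their own quantile normalized intensities, also deposited, served as an alternative. Here the scanner intensities were averaged per probe, quantile normalized and floored at 20. Two-sided, unpaired limma fits (version 3.58.1, R 4.3.3, with data.table at 1.17.8) on the log2 scale followed the study's choice of an unpaired comparison. A probe was tested where either group averaged 50 or more, with Benjamini-Hochberg adjustment over all such probes. The brightest probe stood for a gene. Precision is limited by 3 arrays per label.

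Replicates are numbered by experiment, and the study's array documentation pairs them. Residuals of same-numbered arrays correlated at 0.466, 0.300 and 0.254 and residuals of differently numbered ones at -0.327 to 0.126. Residuals from group means cancel within a group, so positive values for same-numbered arrays push the others down. The gap between these ranges is therefore no independent measure of the pairing. Blocked fits were added because of the documented pairing and these correlations.

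Named genes were all members, the targeted gene, the genes of each pathway list that passed, or else those with the smallest p, and the profiles most like Hbegf and Egfr; exceptions are the genes that illustrate a list or a disagreement between probes, and 1 gene that the rule names is not reported here. Members and lists were chosen with earlier results of these data known. Of 5 marker lists, epithelial, endothelial and neural markers had none called in the unpaired fit. With the block 1 epithelial marker passed as higher and 1 neural marker as lower. Summed signals with GapmeR Ntep against control were 6699 to 10250 against 5753 to 7423 for epithelial markers. They were 768 to 846 against 599 to 675 for endothelial and 1854 to 2376 against 1787 to 2547 for neural markers. Alternatives were other scalings, normexp with an offset of 50, floors, limits, array weights, the methods' t-test, blocks and omission of arrays. The steps were tested on simulated data. Coordinates of probes come from the files (mm9), and upstream sequences are from RefSeq (GRCm38.p6).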

Additional observations from a re-analysis of the deposited data

How the results depend on the processing

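Among the 7 tested members, direction was kept under every alternative run except for Nrg1, which reversed from -0.64 to 0.38 with array weights, to 0.50 without control replicate 1 and to 0.18 without experiment 1 (a setting added after the data had been seen). Leaving out single arrays, Nrg1 ranged from -1.28 to 0.50. The Ntep probe reversed to 0.13 without GapmeR Ntep replicate 2, within a range of -1.05 to 0.13. The cause was not tested. After adjustment 1 member passed, against 4 with array weights (Hbegf, Ereg, Btc and Erbb2), 2 with the replicate block and 0 to 1 when single arrays were left out. With array weights 10260 of 30990 tested probes passed over the whole array, against 1642 in the main fit. The block called 13.9% of all gene names, so these counts do not set the members apart. At the fold and p limits 1 passed, against 0 with normexp or a floor of 50, 2 with array weights, the block or without experiment 1, and 1 to 2 when single arrays were left out. In the main fit 7.89% of all gene names passed these limits, and this share was not counted for the alternatives.

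Over the whole array 1642 probes passed after adjustment. Alternatives for this count and for the lists were added after the data had been seen. It was 564 without an intensity limit, where more probes are tested, 10260 with array weights, 285 by the methods' t-test, 4292 with the replicate block, 865 without experiment 1, and 0 to 1403 when single arrays were left out (0 without control replicate 2 or GapmeR Ntep replicate 3). Of the pathway genes 1 passed, against 0 with 75th percentile scaling, 6 with normexp, 2 with a floor of 50, without an intensity limit, by the t-test, without experiment 1 or with any probe counted, 19 with array weights, 5 with the block and 0 to 0 when single arrays were left out. Scaling to the 75th percentile moved the median difference of all gene names from 0.06 to 0.20, and members kept their directions. The block changed the call of no member other than Ereg. Areg, Tgfa and Erbb3 were too dim to compare.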
